A study of Mus musculus with 2 samples.

Results

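Of 10531 genomic elements in the deposited list of a reporter assay in activated mouse CD4+ T cells, 324 lay in exons away from promoters. An element was taken as exonic when its midpoint fell in an exon of a GENCODE vM21 basic transcript and lay more than 1000 bp from every annotated transcription start site (TSS). The midpoint was in coding sequence for 176 elements, in an untranslated part of a coding transcript for 90 and in an exon of a noncoding transcript for 58. The 324 elements belonged to 319 genes, and 5 genes held 2 elements each. Exon kind was read in the order coding, untranslated, noncoding where transcripts overlapped. Positions could be annotated for 10521 elements, and the other 10, on unplaced scaffolds, were left out of all comparisons.

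STARR-seq (self-transcribing active regulatory region sequencing) places genomic fragments downstream of a minimal promoter inside a reporter transcript, so that a fragment that raises transcription raises its own RNA relative to the plasmid. The library was carried on episomal plasmids that were introduced by transient transfection into naive CD4+ T cells of C57BL/6NJ mice. The cells had been kept for 3 days with antibodies against CD3e, CD28, IL-4 and IFN-gamma and with the cytokine IL-2, which all samples shared. There was 1 group of 2 biological replicates, with age and sex not known, and no untreated or control group. The list has no expression values, so the labelled cell type could not be checked against markers. Fragments were 200 to 400 bp long by label, and 30 µg of nucleic acid went into each library.

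The deposited list gave 1 effect and 1 adjusted p-value per element for both replicates together, so no spread between replicates, count or depth stood behind any value. A positive value likely stands for a fragment over-represented in the reporter RNA, but no source used here states the sign, the contrast or the base of the logarithm, and effects are called positive or negative and taken as log2. The highest adjusted p in the list was 0.00999974, and the raw and adjusted p-values together implied 114722 tested regions, of which 9.18% were listed. Of the whole list, 51.3% of elements had a positive effect. An unlisted exon was therefore either not past that threshold or not tested, and these cannot be told apart.

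Exons hold the sequence of the mature transcript, and coding exons also spell protein, so that their base composition is held by the codons they carry. Some coding exons are also bound by transcription factors and can act as enhancers of their own or of neighbouring genes, and 3′ untranslated regions carry sites that act on RNA stability and on the end of transcription. In STARR-seq the fragment sits in the transcribed part of the reporter, so an RNA-level signal in it acts on the measured RNA too. Activated T cells have high AP-1 and NFAT activity and respond to interferons through ISRE sites, to which STAT and IRF factors bind, whereas SP and KLF factors bind GC boxes that are common in CpG islands.

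The sequences below show the short matches that recurred in these elements, with capitals marking the matched bases. Each is a 30-base window of mm10 on the plus strand. The AP-1 word was TGANTCA, the SP/KLF word was GGGCGG, and the ISRE word was GAAA, any 2 bases and GAAA. All were searched on both strands, so a match may be printed as its reverse complement. Sp110, Mroh9, Il2ra and Gm45424 carry AP-1 words in positive elements.
Sp110 AP-1, chr1:85584965-85584994: acgttcgtagaTGAGTCAtctttccacaaa
Mroh9 AP-1, chr1:163062460-163062489: atcttggctagTGACTCAacaccagacgtc
Il2ra AP-1, chr2:11691350-11691379: ctcagatgagtTGAGTCAgattctcatgtt
Gm45424 AP-1, chr8:85603127-85603156: tacatactattTGAGTCAgggtgtcactct

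Ccdc18, Ifit2, Gm12440 and Rd3 carry ISRE words in positive elements. Ccdc18 was picked after its values were seen, as a coding example.
Ccdc18 ISRE, chr5:108206717-108206746: aaggatgaaaGAAATGGAAAgtgtaagtaa
Ifit2 ISRE, chr19:34570183-34570212: tactttctggTTTCAATTTCtcttctttgg
Gm12440 ISRE, chr3:99052506-99052535: tatcaagtagGAAACTGAAAccagcaatag
Rd3 ISRE, chr1:191986943-191986972: atggcataggTTTCCATTTCtcagaacagg

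Evx2, Gata4, Prdm13 and Foxo6 are the 4 most negative coding elements, and each carries SP/KLF words in a window rich in G and C.
Evx2 SP/KLF, chr2:74655782-74655811: ccgctgccaccgCCGCCCcgggagcccagc
Gata4 SP/KLF, chr14:63240828-63240857: gcgcggggacacGGGCGGcggggtgtaggc
Prdm13 SP/KLF, chr4:21679374-21679403: ccggcccggcccCCGCCCagcagccgccct
Foxo6 SP/KLF, chr4:120268382-120268411: gggcctcggcgcGGGCGGcggcggaggcag

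The share of positive elements differed between the kinds of exon. Their GC content differed too, with medians of 66.7% in coding, 48.2% in untranslated and 47.7% in noncoding elements. Of the 176 coding elements, 58 were positive, or 33.0% (95% exact binomial interval 26.1 to 40.4%). Of the 90 untranslated elements 71 were positive, or 78.9% (69.0 to 86.8%), and of the 58 noncoding elements 48 were positive, or 82.8% (70.6 to 91.4%). Over all 324 exonic elements 177 were positive, 54.6% (49.0 to 60.1%), close to the 51.3% of the whole list. That share is a mean of a mostly negative coding class and 2 mostly positive classes. Elements in introns were positive in 85.7% of 2459 and those between genes in 87.8% of 2315, whereas promoter elements, within 1000 bp of a TSS, were positive in 19.9% of 5423. Untranslated and noncoding exons thus had shares near those of introns, and coding exons lay between introns and promoters. These intervals cover the number of elements only, elements are not replicates, and no test over elements was made.

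**Figure D1:**
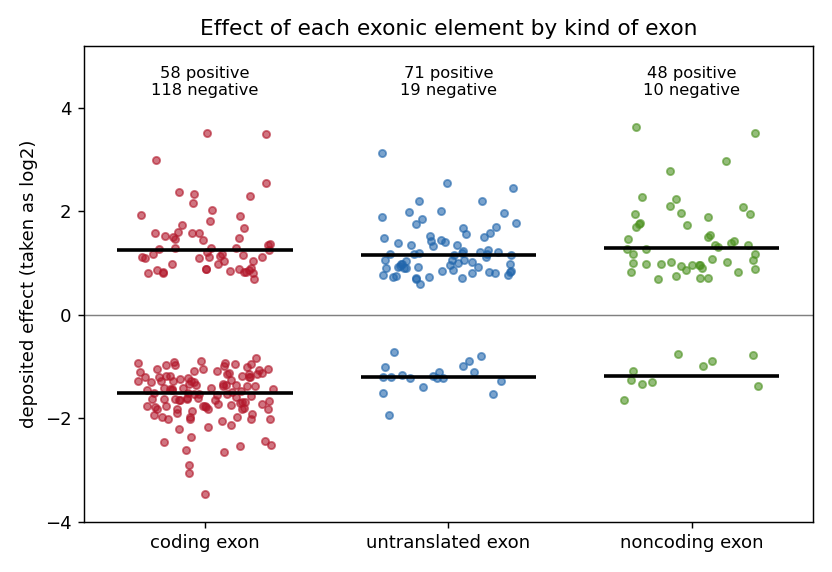
Each point is 1 exonic element, by the kind of exon at its midpoint (horizontal position, jittered) and its deposited effect, taken as log2 (vertical axis), with black bars at the medians of positive and of negative elements. The 118 negative coding elements reach further from 0 than the 19 negative untranslated and 10 negative noncoding elements.

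Effects were of similar size among positive elements of all kinds. The median positive effect was 1.26 (95% order-statistic interval 1.12 to 1.46) in coding exons, 1.16 (0.98 to 1.26) in untranslated exons and 1.29 (1.03 to 1.55) in noncoding exons. The other distal elements, which are the intronic and intergenic ones together, had a median of 1.38 (1.36 to 1.41), and all exonic positives together 1.19 (1.12 to 1.31). Negative coding elements had a median of -1.52 (-1.63 to -1.41), against -1.27 (-1.31 to -1.22) for other distal negatives and -1.47 (-1.49 to -1.45) for promoter negatives. All 18 exonic elements with an effect of -2 or lower were coding. Of the 23 with an effect of 2 or higher, 9 were coding, 6 untranslated and 8 noncoding. The threshold on TSS distance passed between elements of both signs. Just outside it were 6530402F18Rik at 952 bp with an effect of 0.99, D030062O11Rik at 972 bp with -2.54 and Tomm6os at 992 bp with -0.76, and just inside were Gm43323 at 1003 bp with 0.97, Abr at 1006 bp with -1.22 and Sox18 at 1015 bp with -1.73.

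Set against the length of genome in each class, coding exons were dense in negative elements and close to introns in positive ones. Coding bases more than 1000 bp from a TSS made up 29.9 Mb, or 1.13% of the genome counted, and held 3.95 negative and 1.94 positive elements per Mb. Introns, with 1029 Mb, held 0.34 negative and 2.05 positive elements per Mb, so that the coding density was 11.6 times the intronic one for negative elements and 0.95 times for positive ones. Untranslated exons held 0.61 negative and 2.27 positive elements per Mb over 31.2 Mb, and noncoding exons 0.63 and 3.02 over 15.9 Mb. Intergenic sequence held 0.20 and 1.43, and promoters held 37.5 and 9.34. Coding sequence had 51.1% GC and intronic sequence 42.2%, and the densities were not weighted for GC content. How evenly the library covered these classes is not known from the list.

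**Figure D2:**
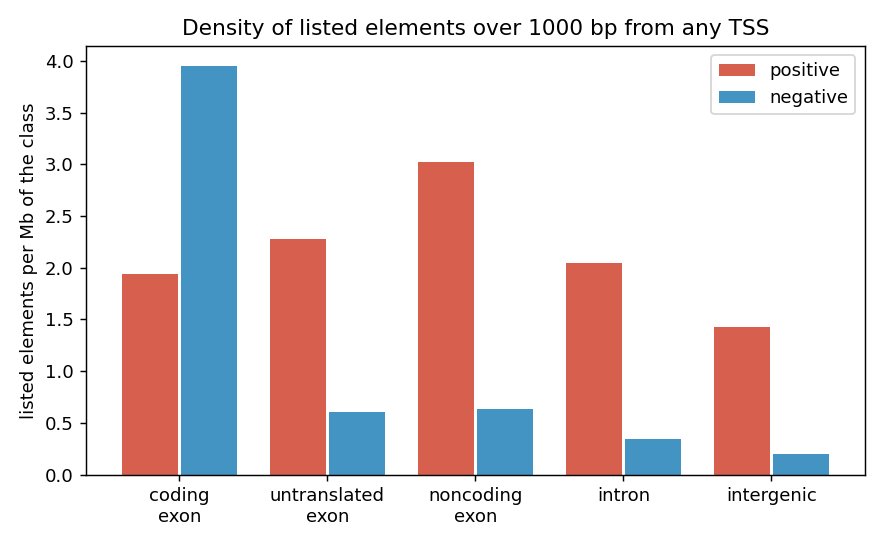
Bars give the listed elements per Mb of genome (vertical axis) for each class of sequence more than 1000 bp from any TSS, by sign of the effect. Coding exons are the class of these 5 in which negative elements, at 3.95 per Mb, outnumber positive ones, at 1.94.

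Base composition separated the signs within each kind of exon. The median GC content was 69.1% in negative and 49.0% in positive coding elements, 61.3% and 46.6% in untranslated elements, and 59.4% and 46.6% in noncoding ones. Other distal elements had medians of 57.7% and 46.5%, and promoter elements of 68.0% and 55.1%. Negative coding elements held a median of 99.7 CpG per kb, against 17.4 in positive ones, 30.0 in negative elements of other distal sequence and 94.7 in negative promoter elements. By a CpG-island-like definition (GC content of at least 50% and an observed-to-expected CpG ratio of at least 0.6), 105 of 118 negative coding elements qualified, or 89.0%, against 7 of 58 positive ones. Among negative untranslated elements 6 of 19 qualified, among negative other distal elements 38.4%, and among negative promoter elements 92.6%.

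The share of positive elements fell over a narrow range of GC content. Below 40% GC 14 of 15 exonic elements were positive, and from 40 to 45% 43 of 46, from 45 to 50% 65 of 69, and from 50 to 55% 34 of 37. From 55 to 60% 16 of 25 were positive, from 60 to 65% 4 of 27, from 65 to 70% 0 of 57 and above 70% 1 of 48. At like GC content the 3 kinds of exon had similar shares. Up to 50% GC 33 of 34 coding, 52 of 56 untranslated and 37 of 40 noncoding elements were positive. From 55 to 65% these counts were 12 of 32, 6 of 15 and 2 of 5, and above 65% 1 of 97, 0 of 5 and 0 of 3. Of the coding elements 97 of 176 lay above 65% GC, or 55.1%, and 4.4% of other distal elements did. Introns fell over the same range, with 27.1% positive from 60 to 65% GC and 5.5% from 65 to 70%, whereas intergenic elements still had 39.8% and 24.2%. Weighting the other distal elements to the GC content of the exonic ones gave 60.02% positive, so the gap to the exonic 54.6% was -5.39 percentage points, against -32.1 unweighted. The 95% interval of the exonic share alone put this gap at -10.99 to 0.12. The weighted share was taken as fixed there, so that range is too narrow for the gap itself. The gap was -2.92 points without elements that have near-identical copies and -2.63 with elements of at least 200 bp. For coding exons the gap to introns was -1.52 points after weighting and -52.8 before, and the gap to intergenic elements was -12.2 points after weighting. The weighted intronic share, 34.5%, lay within the interval of the coding share, and the part of GC content in the activity was not tested.

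**Figure D3:**
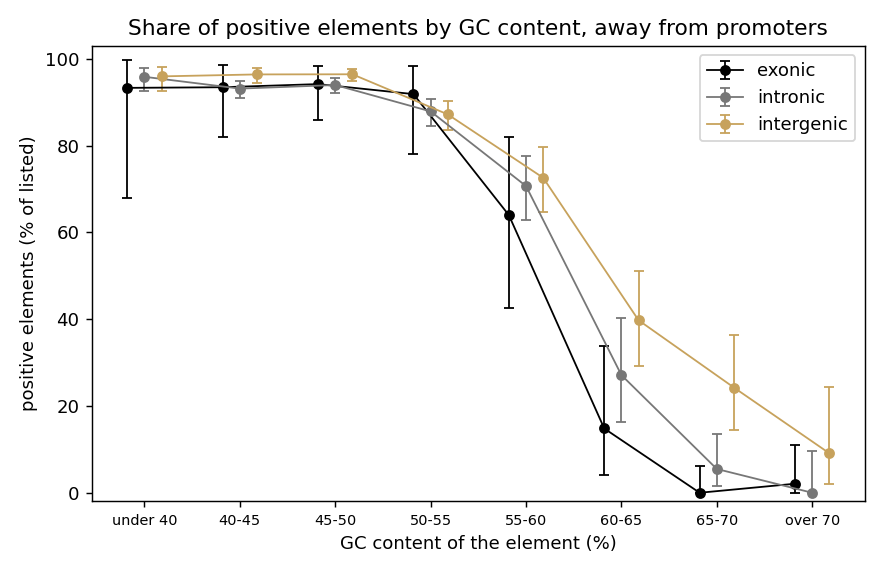
Points give the percent of listed elements with a positive effect (vertical axis) in bins of GC content (horizontal axis, 5 percentage points wide in the middle), with 95% exact binomial intervals, for exonic, intronic and intergenic elements. All 3 classes are mostly positive up to 55% GC, and at 60 to 65% GC exonic elements are at 14.8% and intergenic ones at 39.8%.

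**Figure D4:**
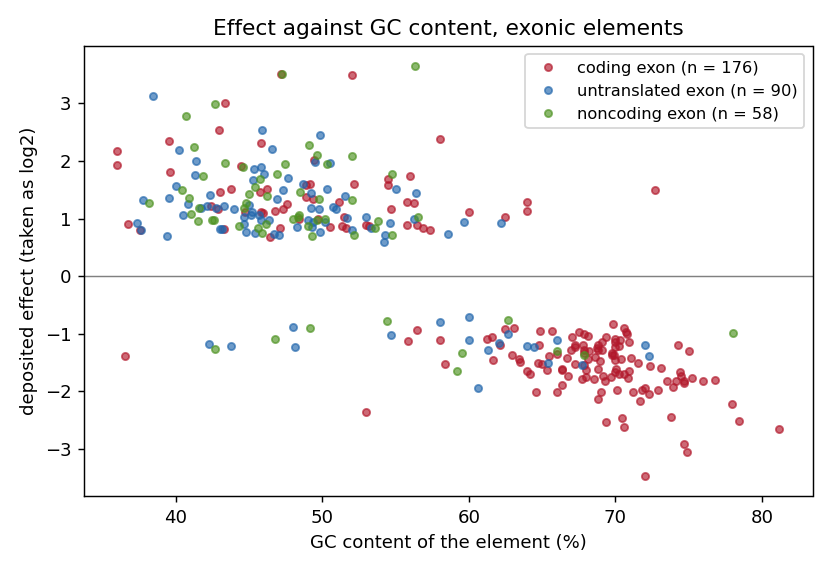
Each point is 1 exonic element, with its GC content (horizontal axis) and its deposited effect, taken as log2 (vertical axis), coloured by kind of exon. Elements of all 3 kinds are mostly positive below 55% GC and mostly negative above 65%, and Lor is the positive element on the far right, above 70% GC.

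The exceptions to this pattern were few and could be named, after their values were seen. Among the 5 positive elements above 60% GC were 3 in genes of the skin barrier and hair, Lor at 72.7% GC (loricrin, effect 1.49), Tchh at 64.0% (trichohyalin, 1.29) and Krt1 at 62.5% (keratin 1, 1.03). The other 2 were Majin, a meiotic telomere protein, at 64.0% (1.13) and Ier2, an immediate early gene, at 62.2% (0.91). Of the 8 negative elements below 50% GC 1 was coding, Zfp472, a zinc finger gene, at 36.5% GC with an effect of -1.39. Of the other 7, 4 were untranslated (Bach2 -1.21, Ncbp3 -1.23, Tex10 -1.18 and Zbtb46 -0.89) and 3 were noncoding (Gm37342 -1.26, Gm44369 -1.09 and Gm38313 -0.90).

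Positive and negative coding elements sat in different kinds of exon. Positive coding elements lay in genes with a median of 18 exons, in exons with a median length of 199.5 bp, and a median of 56.5% of the element was exonic. In 28 of 58 the element held a whole exon, and in 12 it lay within the exon. Negative coding elements lay in genes with a median of 4.5 exons, in exons with a median length of 1167.5 bp, and at the median the whole element, 100%, was exonic. Of these 59 of 118 lay within the exon and 62 were in the last exon of the transcript. By place in the gene, internal coding exons had 40 positive elements of 84 and last exons 16 of 78. When at least 50% of the bases had to be exonic, 23.4% of coding elements were positive.

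Elements of all kinds were mostly richer in GC than the sequence around them. The 500 bp on either side were lower in GC than the element in 109 of 118 negative and 48 of 58 positive coding elements, in 15 of 19 and 56 of 71 untranslated and in 10 of 10 and 35 of 48 noncoding ones. The medians of flank and element were 54.0% and 69.1% in negative coding elements and 45% and 49.0% in positive ones. Other distal elements had 49.5% and 57.7% when negative and 43.7% and 46.5% when positive, so this was not particular to exons. Where an element held both exonic and other bases, the exonic bases were richer in GC in 44 of 52 negative coding elements, with medians of 70.6% and 61.4%, and in 33 of 42 positive ones, with 49.6% and 47.5%. Distance from the TSS moved with sign as well. From 1000 to 2000 bp 13.5% of coding elements were positive, from 2000 to 5000 bp 19.2%, from 5000 to 20000 bp 43.3% and beyond 20000 bp 63.0%. Introns at those distances had 63.6%, 85.4%, 86.9% and 90.1%, so coding elements stayed below introns at each distance before any weighting for GC content.

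The 6 most negative coding elements lay in Evx2, Gata4, Prdm13, Foxo6, Speg and Kiss1. Evx2, a homeodomain factor of limb and spinal cord, had the lowest effect, -3.46 (adjusted p in the deposited list 3.48e-05), in an 825 bp element at chr2:74655601-74656425 that crosses 1 edge of its last exon, with 89.1% of its bases exonic and 72.0% GC. Gata4, a zinc finger factor of heart and endoderm, had -3.05 (1.55e-05) in exon 2 of 7, at chr14:63240601-63241050 with 74.9% GC. Prdm13, a factor of neural development, had -2.91 in its last exon with 74.7% GC and 8 SP/KLF words. Foxo6, a forkhead factor expressed in brain, had -2.65 with 81.2% GC. Speg, a kinase of striated muscle, had -2.61 in exon 30 of 41, a 1969 bp exon, with 70.6% GC. Kiss1, the kisspeptin precursor, had -2.54 with 69.3% GC, and the read-through transcript Gm28040 overlaps it. All 6 elements had GC content of 69.3% or more, and 5 of the 6 lay wholly within an exon.

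The next groups of genes were put together after their values were seen, and so are a description only. Of all coding elements 118 of 176 were negative, 67.0%, and of those above 65% GC 96 of 97, so the counts show nothing particular to these groups. Of 13 elements in a group of homeodomain factor genes (among them Evx1, Nkx2-3, Phox2a, Pitx3, Rax and Vax1) 11 were negative, and the 13 had a median effect of -1.34 and a median GC content of 68.0%. The 2 positive ones were Dbx1 at 0.83, with 56.9% GC, and the 3′ UTR of Onecut2 at 3.13, with 38.5% GC. Of 17 elements in 16 other genes of developmental transcription factors (such as Tal1, Klf1, Sox17, Tbr1, Hes1 and Zic5) 16 were negative, all coding, and the positive one was the 3′ UTR of Sox6 at 2.20. All 10 elements in a group of receptors and ligands (Adra1b, Adrb1, Alk, Amh, Fzd8, Grik5, Grin2c, Kiss1, Notch4 and Wnt6) were negative, from -2.54 to -0.97, with 64.96 to 74.4% GC. The group is not a full list of such genes. Receptors and ligands left out of it had positive elements, such as coding ones in Flt3 (1.37), Trhr (1.11) and Lrp6 (0.88) and an untranslated one in Bmp10 (0.83). Genes named Zfp or Zbtb, zinc finger genes by symbol, had 10 elements, of which 8 were negative and Zfp605 (1.91) and Zfp710 (1.02) positive. Of the 10, 6 were coding, 5 of them negative. The other 4 were untranslated, a kind in which 19 of all 90 elements were negative, so the 67.0% above does not apply to them.

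The 2 elements of a gene had the same sign in all 5 such genes. Insm1, a zinc finger factor of endocrine and neural cells, had -1.27 and -1.76 in 1 exon, and Trim71, a stem cell RNA-binding ligase, had -1.80 and -1.23. Siglec15, a sialic acid receptor of osteoclasts, had -1.41 and -1.28, and Gm39323 had -0.75 and -0.79. Hist1h2be, a histone H2B gene, had 0.93 in its untranslated part and 0.86 in its coding part. The elements of a pair lie close together, share a host gene and may share fragments, so they are not independent.

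The 6 largest positive coding effects were those of Ifi211, Sp110, Vmn2r96, Spice1, Otog and Mroh9. Ifi211, an interferon-inducible PYHIN gene, had an effect of 3.51 (adjusted p 9.32e-11 in the deposited list) at chr1:173905951-173906450, in an element that held exon 3 of 7 whole. Sp110, an interferon-inducible nuclear body gene, had 3.49 (1.01e-06) over 175 bp that held exon 8 of 12 and the AP-1 word shown above. Vmn2r96, a vomeronasal receptor, had 3.00 within its last exon. Spice1, a centriole and spindle gene, had 2.54, Otog, the inner ear otogelin, 2.37 in an element holding exon 11 of 56, and Mroh9 2.35 with 2 AP-1 words. In 5 of these 6 the element held a whole short exon of 197 bp or less, and at most 85.7% of its bases were exonic, so exonic and intronic bases were measured together. Arid1a, a subunit of the SWI/SNF remodelling complex, was the only chromatin gene of 20 listed with an exonic element, at 1.27 within its last exon.

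Untranslated elements of both signs lay mostly in long last exons. Of the 71 positive elements 69 were in the last exon and 64 lay within their exon, with a median exon length of 3436 bp. Of the 19 negative elements 14 were in the last exon and 17 lay within their exon, with a median exon length of 2194 bp. Elements in 3′ UTRs were positive in 70 of 84, or 83.3%. Of 6 elements in 5′ UTRs 1 was positive, Ifit2. The largest effects were those of Onecut2 at 3.13, a neural and liver homeodomain factor, and of Mrps35 at 2.54, a mitochondrial ribosome protein. Rd3, a retinal guanylate cyclase regulator whose exon is overlapped by Gm26670, had 2.45 with 1 AP-1 and 1 ISRE word. Mrtfb, a coactivator of serum response factor, had 2.20, as did Sox6, with 1 AP-1 and 2 ISRE words. The most negative were Tbkbp1, a TBK1 binding protein, at -1.95, Rasl10b, a Ras-like GTPase, at -1.54 and Zbtb7b, the factor ThPOK of CD4 lineage choice, at -1.51. They were followed by Lrfn1 at -1.39, Slc12a5, a neuronal chloride transporter, at -1.28, and Ncbp3, a cap-binding protein, at -1.23.

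Exonic elements were found in 6 genes of the T cell and interferon lists. Of all 21924 annotated protein-coding genes 261 held one, or 1.19%, and no count per list was tested against that share. Of 44 genes of T cell activation and costimulation 1 did, Il2ra, the IL-2 receptor alpha chain CD25, at 2.00 (adjusted p 1.52e-09) over chr2:11691201-11691700, within its 3436 bp last exon and with the AP-1 word shown above. Of 29 interferon response genes 2 did, both positive. Ifit2 had 1.77 (1.62e-05) in an element that held a 152 bp exon of its 5′ UTR, and Ifit3 had 1.98 (1.51e-06) within its last exon. Of 32 T lineage factors 2 did, both negative and both in 3′ UTRs, Zbtb7b at -1.51 with 65.4% GC and 5 SP/KLF words, and Bach2, a repressor of effector fate, at -1.21 with 43.8% GC. Of 31 genes of T cell receptor signalling and surface 1 did, Cd3d, a CD3 subunit, at 0.92. No member of the lists of cytokine receptors and homing (23 genes), cell cycle and growth (20), B cells (8), myeloid cells (10) or hepatocytes (8) had one, and of 9 neuronal genes Dlx1 did, at -1.15. Other genes of lymphocytes, picked after their values were seen, had elements of both signs in their 3′ UTRs, with Ms4a4b, which has near-identical copies, at 1.23, Cytip, a regulator of adhesion, at 1.18 and Tnfrsf1b, a receptor of tumour necrosis factor, at -1.22. Plasmid elements are away from their genes, so these values say nothing of the level of the genes themselves.

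Noncoding exons had the largest exonic effect of all. A530040E14Rik, annotated as antisense, had 3.64 at chr1:85111676-85112000, in an element that held exon 4 of 6 whole. Gm45424 had 3.51 (1.24e-10) across the edge of a single-exon gene model of class TEC, an annotation class for models awaiting experimental evidence. Gm12440, a long intergenic RNA, had 2.98 with 1 ISRE word, Gm12059 had 2.77 with 3 AP-1 words, Gm49410 had 2.27 and Gm19585 2.24. By class, antisense RNAs had 16 positive elements of 17, long intergenic RNAs 17 of 20, processed transcripts 4 of 5 and TEC models 10 of 15. The lowest effects were those of Gm43937 at -1.65, Rncr4 at -1.37, Gm37194 at -1.34, Gm11946 at -1.30, Gm37342 at -1.26 and Gm44369 at -1.09. Of these 6, 4 were TEC models. In 7 of the exonic elements exons of both strands met at the midpoint, and the list carries no strand.

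Matches to the AP-1 word were about as common in positive exonic as in other positive distal elements. AP-1 was found in 74 of 177 positive exonic elements, 41.8% (34.5 to 49.4%), against 41.2% (39.7 to 42.7%) of other distal positives, and in 10.9% of exonic negatives, against 24.2%. ISRE was found in 50 of 177 positives, 28.2% (21.7 to 35.5%), against 19.6% (18.4 to 20.8%), and in 2 of 147 negatives. Windows of equal length, the central 200 bp of elements at least that long, gave 28.5% against 29.8% for AP-1 and 18.8% (13.1 to 25.6%) against 13.5% (12.4 to 14.6%) for ISRE, whose intervals overlap. In the central windows 0 of 128 exonic negatives had an ISRE match, with an upper bound of 2.84%. The ISRE share was alike in the 3 kinds of exon, with 27.6% in coding, 25.4% in untranslated and 33.3% in noncoding positives. Both words were present in 17 positives, AP-1 alone in 57, ISRE alone in 33 and neither in 70, with median effects of 1.56, 1.12, 1.36 and 1.25. The NFAT word TTTCCA, which can lie inside an ISRE word as it does in Rd3, was found in 49.7% of exonic positives and 18.4% of negatives, against 40.6% and 27.8% in other distal elements. In the central 200 bp its share in positives was 28.5% (21.7 to 36.02%) against 26.9% (25.5 to 28.4%).

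SP/KLF matches were more common in negative than in positive coding elements, as they were in the whole list. The word was found in 84 of 118, 71.2% (62.1 to 79.2%), and in 9 of 58 positive coding elements, 15.5% (7.35 to 27.4%). In the central 200 bp the shares were 48.1% (38.4 to 57.97%) and 11.5%, and in other distal elements 35.8% (31.7 to 40.02%) of negatives and 5.73% of positives. In the whole list, promoters included, 84.3% of negatives and 19.6% of positives held the word, with 63.3% and 10.7% in the central 200 bp. The share in negative coding elements was thus below that of all listed negatives. The E-box word CACGTG was found in 26.3% of negative coding elements and 12.01% of negative other distal ones. In the central 200 bp these shares were 8.33% (3.88 to 15.2%) and 4.90%, and the intervals overlap. The polyadenylation word AATAAA was found in 32.4% of positive untranslated elements and in 28.5% of positive other distal ones over the whole element, but in 7.35% (2.43 to 16.3%) and 14.7% (13.6 to 15.9%) in the central 200 bp. The SP/KLF word can overlap the EGR word GCGTGGGCG, which 5 negative coding elements held. Word counts depend on GC content, which differs between the signs, and a match does not show that a factor was bound.

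**Figure D5:**
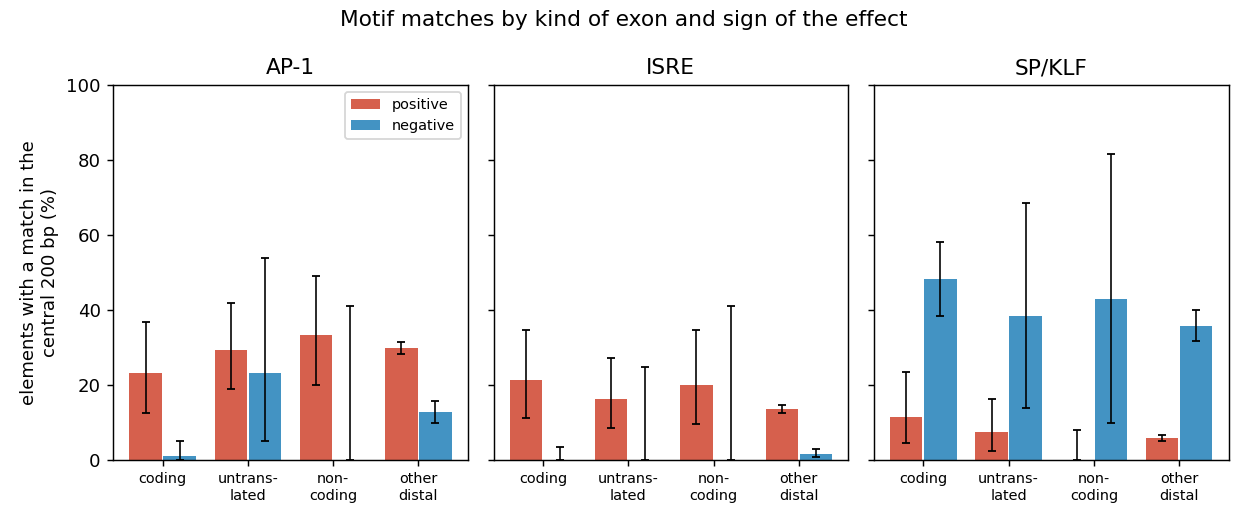
Bars give the percent of elements with a match in their central 200 bp (vertical axis), with 95% exact binomial intervals, for the AP-1, ISRE and SP/KLF words in the 3 kinds of exon and in other distal elements, by sign of the effect. SP/KLF matches are at 48.1% in negative and 11.5% in positive coding elements, whereas AP-1 matches are at 0.93% and 23.1%.

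Near-identical copies elsewhere in the genome were found for 16 of 324 exonic elements, 4.94% (at least 95% identity over at least 90% of the length), 15 of them positive. Over all 10521 annotated elements 593 had such copies, 585 of them positive. Among 4774 other distal elements 364 had copies, 359 of them positive, so neither trait was particular to exons. The 16 exonic elements included 5 of the 18 with the largest effects per kind of exon, Ifi211, Sp110, Vmn2r96, A530040E14Rik and Gm49410. The copy of the Ifi211 element lies in Ifi204, that of Ifi209 in Ifi214 and that of Ifit3 in Ifit3b. The A530040E14Rik element, at 3.64, matches a listed element in Sp110 with an effect of 3.74 at 98.5% identity. The elements of Slc10a4 and Gm5868 are copies of each other at 97.5% identity and had 1.59 and 1.69. Reads from such copies may be shared or assigned to either place, so these values are uncertain for the place named. A group of 5 interferon-inducible genes (Ifi209, Ifi211, Ifit2, Ifit3 and Sp110, all positive from 1.56 to 3.51) was put together after its values were seen. It is not a full list of such genes, and Trim14, left out of it, had a coding element at -2.05. Without elements that have copies, the group comes down to Ifit2 alone.

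Promoters of the host genes were listed for a minority. Of the 118 negative coding elements 25 lay in genes with a listed promoter element, in 24 of which all such elements were negative. Of the 58 positive coding elements 17 did, with all negative in 13, and of the 71 positive untranslated elements 25 did, with all negative in 20. Of the 48 positive noncoding elements 3 did, with all negative in 2, and of the 19 negative untranslated elements 9 did, with all negative in 9. Of all promoter elements in the list 19.9% were positive. The share of all genes with a listed promoter element was not computed, so these counts cannot be read as a trait of the host genes. Another listed element lay within 10000 bp of 37 negative coding elements, with the same sign in 29, and within that distance of 6 positive ones, with the same sign in 4. The 37 include the pairs in Insm1, Trim71 and Siglec15, whose elements count each other. The same share over all listed elements was not computed.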

How the data were processed

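STARR-seq elements of activated naive CD4+ T cells were taken from the 1 deposited list of both replicates. The deposited effect was read as log2 from its values, since its sign and base are not stated, and the deposited p-value and adjusted p-value were the authors' own. The aligner, caller and input are not given in the sources used here. The build was mm10, and depth is unknown, so no value carries an error over replicates.

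Elements were annotated by midpoint against GENCODE vM21 with Python 3.11.15, pandas 2.3.3 and pysam 0.24.0, on the GRCm38 sequence read with samtools 1.23.1. Copies were found with minimap2 2.31. Shares carry Clopper-Pearson and medians order-statistic intervals at 95% (SciPy 1.17.1). The code was tested on simulated data. No test was made over elements.

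Members and gene lists were chosen with earlier results of these data known. Named were the 6 largest and 6 most negative effects per kind of exon, list genes, genes with 2 or more elements, and the 3 elements on either side of the 1000 bp limit. Others are named as chosen after their values were seen. Alternatives were promoter windows of 500 and 2000 bp, exonic share, adjusted p, copies, class precedence, GC bin width, motif window and element width.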

Additional observations from a re-analysis of the deposited data

How the results depend on the processing

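Of 76 results under alternatives 11 moved and 65 did not, by the rule that a share or median stays within its interval and a count within 1.5 times. None reversed, but only the GC-weighted gap could, since a count, a share or a median of 1 sign cannot change sign. The number of exonic elements was 461 with a promoter window of 500 bp, 256 with 2000 bp, 293 with at least 50% of bases exonic, 293 at widths of at least 200 bp and 308 without copies, against 324. The GC-weighted gap to other distal elements ran from -7.28 to -2.63 points. With the 500 bp window the share of positive elements was 43.4% over all exonic elements, against 54.6% with 1000 bp, so that most were then negative. It was 24.5% over coding and 67.6% over untranslated elements, and the median GC content was 62.7%, since elements nearer to a TSS enter. With at least 50% of bases exonic, 23.4% of coding elements were positive. At an adjusted p of at most 0.001 there were 172 elements, 87.2% of the untranslated ones were positive, and the medians were 1.44 and -1.62, since smaller effects drop out. In the central 200 bp AP-1 matched 28.5% and ISRE 18.8% of positives, since less sequence was searched. No paired analysis was possible because there is 1 group and the list holds no values per replicate, and leaving out a replicate could not be run for the same reason. Depth is unknown, so how it limits each effect was not analysed here.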
